A study of Mus musculus with 69 samples.

Results

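Bone marrow-derived macrophages (BMDMs) that lack the transcription factor EGR2 were compared with BMDMs that carry the intact floxed gene, in both cases before any stimulation. The members are the 4 unstimulated RNA-seq libraries of the 69 samples of the series: 2 labelled Egr2 fl/fl (Egr2WT) and 2 labelled LyzM-Cre Egr2 fl/fl (Egr2MKO), chosen by their genotype and by the absence of IL-4 treatment. Both groups are homozygous for the floxed allele, and only the Egr2MKO cells carry Cre, which is inserted at the lysozyme M locus (Lyz2) and drives recombination in macrophages and neutrophils. Egr2WT is therefore a control without Cre, so an effect of Cre or of the LyzM insertion and an effect of Egr2 loss cannot be told apart. The cells came from female mice 8 to 12 weeks old and were differentiated for 7 days in medium with M-CSF, the growth factor that macrophages depend on, and a further 12 libraries of the same genotypes were made after 1, 6 and 24 h of IL-4 at 20 ng/ml. The question was which transcripts depend on Egr2 before IL-4 arrives.

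EGR2 is a zinc finger transcription factor of the early growth response family, which binds GC-rich DNA and is checked by the corepressors NAB1 and NAB2. In myeloid cells the EGR factors are known for their part in the choice of the macrophage over the granulocyte fate. In macrophages IL-4 acts through STAT6 to raise Egr2, and the alternatively activated program that follows includes arginase 1, chitinase-like proteins, lectin receptors and matrix proteases.

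Values are TPM, transcript abundances scaled to library size and transcript length, and differences are log2 fold changes of TPM plus a pseudocount of 1, Egr2MKO minus Egr2WT, with the standard error (SE) of the fit. A gene was called when it changed more than 2-fold at an adjusted p below 0.05 (limma, Benjamini-Hochberg). Where 2 values are given for a group, they are replicates 1 and 2. Genes are named by their size of change or because the study or a gene list singles them out, and further list members are given as examples chosen after their values were seen. With 2 libraries against 2, an exact permutation test of a single gene cannot give a two-sided p below 0.333, so every call rests on the spread that limma pools over all 16 libraries of these genotypes and over genes. The labels do not say whether replicates came from different mice, so the p-values measure the spread between these libraries. The 2 libraries of a group correlated with Pearson's r of 0.988 in Egr2WT and 0.993 in Egr2MKO over 12079 genes, and differed by more than the sampling noise of their reads. The reads behind the TPM values, estimated from the smallest steps between low values, came to 10.7 M and 8.38 M in Egr2WT and 15.9 M and 15.2 M in Egr2MKO. The tag totals written in the column headers did not match these estimates: the estimate was between 22.2% and 323% of the stated total over the 16 libraries, against 94.4% to 98.2% over the 29 libraries of 5 mouse strains in the same series. The header totals were therefore not used as depth.

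The genotype labels were checked by Egr2 and the labels of untreated and treated libraries by Cish, which does not check the hours of IL-4. The order of replicates within a group could not be checked, so replicate numbers serve only as names. Egr2 (chr10:67537869-67542188, mm10) stood at 23.6 and 21.3 TPM in Egr2WT and at 0.859 and 0.854 TPM in Egr2MKO, a log2 fold change of -3.66 ± 0.18 (SE; limma adjusted p = 1.44e-07). The level left in Egr2MKO was 3.81% of that in Egr2WT, measured over the whole gene and not over the floxed segment alone. Cish, an early STAT6 target, lay between 1.42 and 2.77 TPM in the 4 unstimulated libraries and between 22.4 and 59.1 TPM in the 12 IL-4 libraries. All 10 macrophage markers checked (Csf1r, Adgre1, Itgam, Cd68, Mertk, Fcgr1, Cd14, Lyz2, Mpeg1, Spi1) were detected in every unstimulated library. Lyz2 itself, the host gene of Cre, was among the most abundant transcripts at 20194 and 22023 TPM in Egr2WT and 16203 and 16288 TPM in Egr2MKO, a log2 fold change of -0.38 ± 0.04 (limma adjusted p = 8.68e-05). Its neighbour and paralog Lyz1 moved the other way, from 18.6 and 22.4 to 28.1 and 29.6 TPM (0.48 ± 0.12, limma adjusted p = 0.0195), and reads can be split between such near-identical genes.

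Of 12079 genes tested, 45 were higher (0.373%) and 58 were lower (0.48%) in Egr2MKO, 103 in all (0.853%). Without the fold threshold 719 were higher (5.95%) and 671 lower (5.56%) at an adjusted p below 0.05, and 2862 had an unadjusted p below 0.05. The median log2 fold change over all genes tested was 0.02. In all 103 called genes the 2 Egr2MKO libraries lay on the same side of both Egr2WT libraries. That alone is common, because both Egr2MKO libraries were above both Egr2WT libraries for 29.8% of all genes tested and below both for 25.6%. By the deposited annotation 55 of the lower and 39 of the higher genes are protein-coding, and 7 of the 103 are microRNA hairpins, whose TPM rests on a very short length. The Egr2MKO mean was below 1 TPM for 22 of the 58 lower genes, and the Egr2WT mean for 8 of the 45 higher genes. Just inside the 2-fold limit were Slc7a11 (-1.03) and Isg15 (1.01), and just outside it were Atp2a3 (-0.99), Cd74 (0.99), Mmp14 (0.99) and H2-Ab1 (0.97), all with an adjusted p below 0.05.

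**Figure D1:**
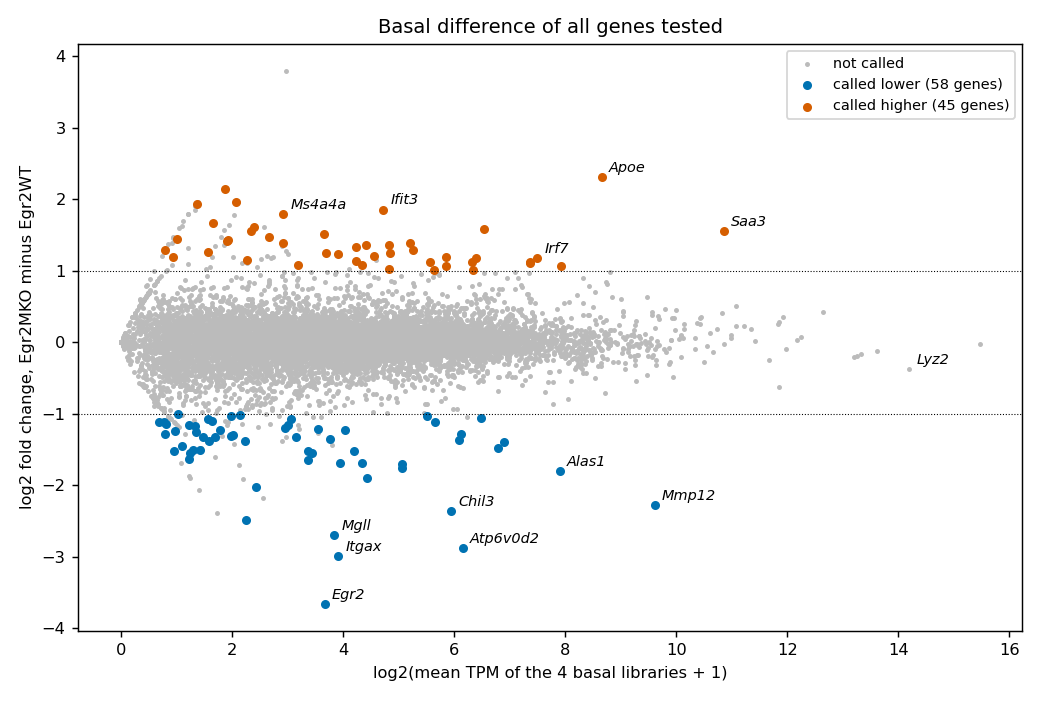
Basal difference of each of the 12079 genes tested (vertical axis, log2 fold change, Egr2MKO minus Egr2WT) against its mean level in the 4 unstimulated libraries (horizontal axis, log2 of TPM plus 1), with genes called lower in blue, genes called higher in orange and the 2-fold limits dotted. Called genes run from near or below 1 TPM, such as Olr1 (means of 1.41 TPM in Egr2WT and 0.093 TPM in Egr2MKO), up to the abundant Mmp12 and Saa3. Egr2 lies lowest among the called genes.

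On the log2(TPM + 1) scale the largest falls after Egr2 itself were in a cell surface integrin and a proton pump subunit. Itgax, which encodes the integrin chain CD11c, a surface marker of dendritic cells and of some tissue macrophages, fell from 25.4 and 25.8 TPM to 2.45 and 2.25 TPM, 10.9-fold (log2 fold change -2.99 ± 0.07, limma adjusted p = 1.87e-10). Atp6v0d2, a V-type proton pump subunit known from osteoclasts and from macrophage fusion, fell from 126 and 123 TPM to 15.7 and 16.5 TPM (-2.88 ± 0.05, limma adjusted p = 1.03e-11). Itgb3, the beta 3 integrin that is also prominent on osteoclasts, fell from 48.5 and 50.9 to 14.7 and 14.4 TPM (-1.70 ± 0.07, limma adjusted p = 3.32e-08). For each of these 3 genes the 2 replicates of a group lay close together and far from the other group. Acp5, another gene of osteoclasts and macrophages, went the other way, from 53.6 and 55.7 to 73.0 and 73.3 TPM (0.41 ± 0.08, limma adjusted p = 0.00399), and Ctsk changed by only -0.21 ± 0.05 (limma adjusted p = 0.0168).

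Mmp12, the macrophage elastase, was the most abundant of the genes called lower and fell from 1253 and 1334 to 267 and 265 TPM (-2.28 ± 0.09, limma adjusted p = 1.24e-08). Chil3, the chitinase-like protein Ym1 that marks alternative activation, fell from 101 and 103 to 20.5 and 17.6 TPM (-2.36 ± 0.17, limma adjusted p = 3.26e-06). Alas1, the rate-limiting enzyme of heme synthesis outside the red cell lineage, fell from 373 and 365 to 106 and 105 TPM (-1.80 ± 0.03, limma adjusted p = 2.66e-11). The groups did not overlap, and the replicates of each gene differed by far less than the groups. Mgll, which releases fatty acids from monoglycerides and from the endocannabinoid 2-arachidonoylglycerol, fell from 23.2 and 24.3 to 2.46 and 3.21 TPM (-2.70 ± 0.12). Gpc1, a heparan sulfate proteoglycan of the membrane, fell from 33.3 and 32.9 to 7.93 and 8.37 TPM (-1.90 ± 0.09). Cyp1b1, a cytochrome P450 that oxidises steroids and aromatic hydrocarbons, fell from 7.09 and 8.18 to 1.05 and 1.19 TPM (-2.02 ± 0.09), and all 3 had a limma adjusted p of 6.78e-08. Eef1a2, a translation elongation factor isoform best known from muscle and neurons, fell from 6.37 and 7.78 TPM to 0.548 and 0.332 TPM (-2.49 ± 0.18).

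Among the other genes called lower, Ccr1, a receptor for inflammatory chemokines such as CCL3, fell from 27.4 and 32.1 to 8.13 and 8.91 TPM (-1.69 ± 0.13, limma adjusted p = 5.51e-06). Serpinb9b, an intracellular serine protease inhibitor, fell from 54.2 and 46.9 to 14.8 and 13.7 TPM (-1.75 ± 0.11). Acpp, an acid phosphatase, fell from 20.9 and 24.0 to 6.26 and 6.25 TPM (-1.69 ± 0.10). Orm1, the acute phase protein orosomucoid, had the widest spread of these genes, at 13.8 and 15.3 TPM against 3.26 and 4.76 TPM (-1.65 ± 0.23, limma adjusted p = 6.23e-04). Clec7a, the beta-glucan receptor dectin-1, is named from the alternative activation list and fell from 157 and 165 to 59.6 and 54.5 TPM (-1.48 ± 0.05). In no gene of this paragraph did the groups overlap. All 15 genes with the largest falls, Egr2 included, kept their call under each of the 17 other fits that were tried.

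**Figure D2:**
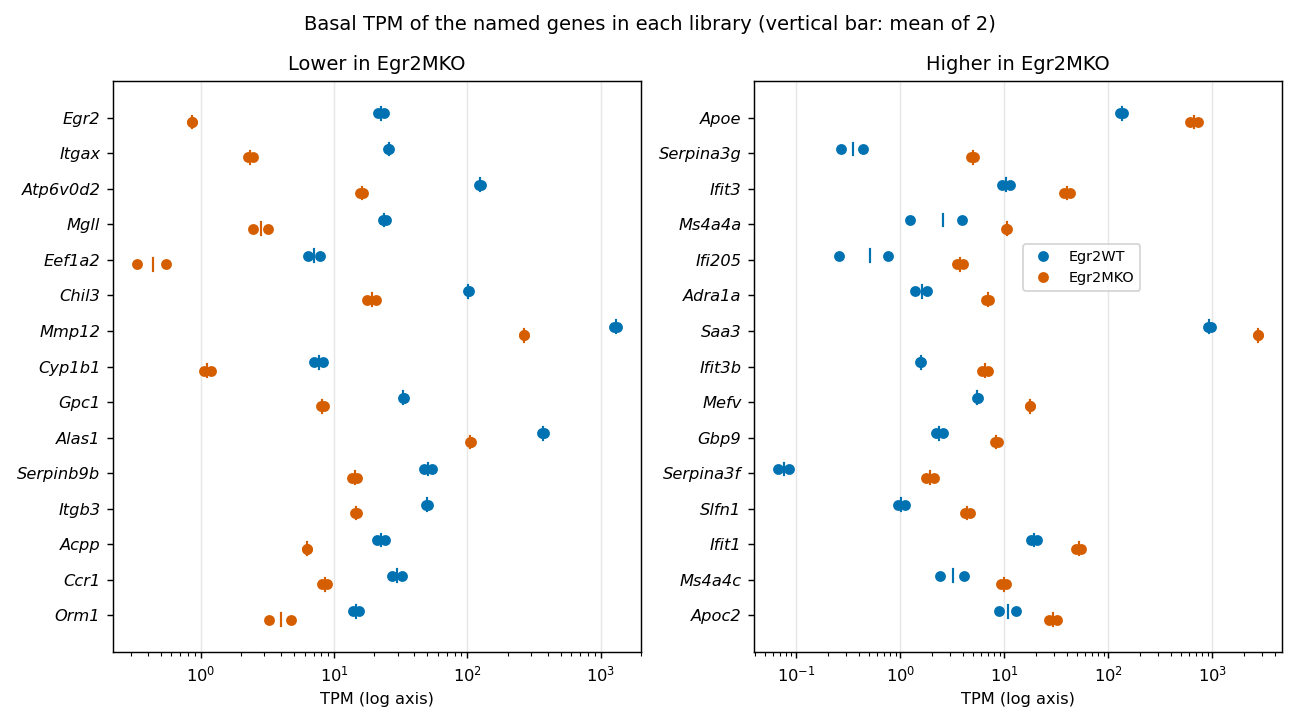
TPM (log axis) in each of the 4 unstimulated libraries for the 15 genes called lower and the 15 called higher with the largest changes, with Egr2WT in blue, Egr2MKO in orange and a bar at the mean of 2. Replicates lie close together for abundant genes such as Mmp12 and Alas1, while the Egr2WT replicates of Ms4a4a and Ifi205 are spread 3-fold or so at a few TPM or less.

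Genes of the alternative activation program were more often lower than higher. Of 34 listed genes 32 were tested, of which 4 were called lower (Itgax, Chil3, Mmp12 and Clec7a), none was called higher, and 12 were lower and 1 higher at an adjusted p below 0.05, with a median log2 fold change of -0.13, against 0.48% of all genes called lower and 5.56% lower and 5.95% higher at that adjusted p. The single member that rose was Stat6, from 99.1 and 95.1 to 113 and 111 TPM (0.20 ± 0.04, limma adjusted p = 0.00952). Arg1, which encodes arginase 1, stood at 55.1 and 81.5 TPM against 30.8 and 46.0 TPM (-0.82 ± 0.24, limma adjusted p = 0.0453), with replicates spread almost as far as the groups. The arginine transporter gene Slc7a2 fell from 6.18 and 7.24 to 3.82 and 2.79 TPM (-0.85 ± 0.14, limma adjusted p = 0.00158). Pparg, a nuclear receptor that takes part in the IL-4 response, fell from 12.7 and 12.5 to 9.58 and 9.78 TPM (-0.35 ± 0.07, limma adjusted p = 0.0053). Msx3 was below 1 TPM throughout, at 0.538 and 0.771 TPM in Egr2WT and 0 and 0.169 TPM in Egr2MKO (-0.61 ± 0.11, limma adjusted p = 0.0035). Irf4 (-0.41 ± 0.12, limma adjusted p = 0.051), Klf2 (-0.38 ± 0.19, limma adjusted p = 0.252), Klf4 (-0.34 ± 0.11, limma adjusted p = 0.0673), Klf6 (0.19 ± 0.06, limma adjusted p = 0.0557) and Btbd11, at or below 0.258 TPM in each unstimulated library (0.01 ± 0.20, limma adjusted p = 0.996), did not pass the test.

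The other EGR genes were near the limit of detection. Egr1 lay between 0.273 and 0.712 TPM in the 4 libraries with overlapping groups (-0.06 ± 0.28, limma adjusted p = 0.941), Egr3 lay between 0.18 and 0.32 TPM and was below the filter, and Egr4 was listed at 0 in all 4 libraries. The corepressor genes were expressed but did not pass the test: Nab1 at 28.7 and 30.9 against 34.2 and 33.3 TPM (0.17 ± 0.06, limma adjusted p = 0.113) and Nab2 at 16.3 and 16.1 against 10.3 and 12.8 TPM (-0.47 ± 0.15, limma adjusted p = 0.0626).

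Genes of the oxidative stress response were lower as a group. Of 18 tested, 12 fell and 1 rose at an adjusted p below 0.05, with a median of -0.32, against 5.56% of all genes falling. The member past 2-fold was Slc7a11, the cystine importer that feeds glutathione synthesis, at 57.9 and 63.0 against 29.10 and 28.98 TPM (-1.03 ± 0.08, limma adjusted p = 9.15e-06), and it fell short of 2-fold without Egr2WT replicate 2 (-0.97) and with a pseudocount of 5 TPM (-0.94). Prdx6, a peroxide-reducing enzyme, fell from 287 and 281 to 155 and 156 TPM (-0.86 ± 0.05). Srxn1, which repairs oxidised peroxiredoxins, fell from 335 and 331 to 195 and 189 TPM (-0.79 ± 0.03), and the thioredoxin reductase gene Txnrd1 fell from 236 and 251 to 149 and 150 TPM (-0.70 ± 0.04). Gclc (-0.83), Gclm (-0.54), Nqo1 (-0.60), Prdx1 (-0.62) and Hmox1 (-0.32) also fell, whereas the ferritin heavy chain gene Fth1, the most abundant gene of the list at 43926 to 45924 TPM, did not pass the test (-0.02 ± 0.03). Sod2, the mitochondrial superoxide dismutase, was the member that rose (0.21 ± 0.05, limma adjusted p = 0.0127).

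Smaller falls, none past 2-fold, were counted in 3 lists, where 5.56% of all genes fell and 5.95% rose at an adjusted p below 0.05. Of 32 cell cycle and DNA replication genes tested, 10 fell and none rose at an adjusted p below 0.05 (median -0.25), among them Ccnb2 (-0.67 ± 0.19), Cdc20 (-0.59 ± 0.13) and Mki67, from 50.1 and 50.8 to 37.0 and 34.8 TPM (-0.48 ± 0.06). One of the 10 was Cdkn1a, which encodes an inhibitor of the cycle and fell from 105 and 111 to 70.2 and 78.2 TPM. Another inhibitor gene, the imprinted Cdkn1c, was outside the list and among the genes called lower, at 175 and 168 against 62.4 and 67.5 TPM (-1.39 ± 0.05). Of 26 cholesterol and fatty acid synthesis genes 10 fell and none rose (median -0.20), led by the stearoyl-CoA desaturase gene Scd1 (-0.63 ± 0.05). Of 20 glycolysis and hypoxia genes 5 fell and none rose (median -0.13), with the glucose transporter gene Slc2a1 at 104 and 107 against 73.0 and 74.0 TPM (-0.52 ± 0.07) and Egln3 not past the test (-0.40 ± 0.12, limma adjusted p = 0.0579).

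The clearest gain was in interferon-stimulated genes. All 38 listed genes were tested, 34 were higher and none was lower at an adjusted p below 0.05 (5.95% and 5.56% of all genes), 10 were called past 2-fold (0.373% of all genes), and the median log2 fold change was 0.73, against 0.02 over all genes. In each of the 38 both Egr2MKO libraries lay above both Egr2WT libraries, as did 29.8% of all genes. Ifit3, a member of the family of RNA-sensing antiviral proteins, rose from 9.45 and 11.4 to 42.5 and 37.8 TPM (1.85 ± 0.14, limma adjusted p = 5.5e-06). Its relative Ifit1 rose from 17.9 and 20.7 to 54.8 and 49.3 TPM (1.39 ± 0.15, limma adjusted p = 1.02e-04), and Ifit2 from 25.7 and 31.3 to 65.7 and 61.1 TPM (1.13 ± 0.16). Ifit3b, a close copy of Ifit3 with which it may share reads, rose from 1.56 and 1.58 to 6.99 and 6.10 TPM (1.55 ± 0.18). Irf7, the master regulator of type I interferon genes and itself interferon-inducible, rose from 110 and 109 to 250.5 and 249 TPM (1.18 ± 0.08, limma adjusted p = 1.36e-06). The ubiquitin-like modifier gene Isg15 rose from 32.5 and 31.6 to 66.9 and 64.4 TPM (1.01 ± 0.07, limma adjusted p = 2.92e-06). The replicates of Irf7 and Isg15 differed by far less than the groups.

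The other listed members past 2-fold were less abundant. Ifi205, of the Ifi200 family of DNA sensors, rose from 0.255 and 0.768 to 4.00 and 3.49 TPM (1.67 ± 0.25). Slfn1, a Schlafen family gene, rose from 1.10 and 0.95 to 4.67 and 4.17 TPM (1.42 ± 0.27). Cmpk2, a mitochondrial nucleotide kinase, rose from 11.1 and 12.8 to 27.4 and 25.4 TPM (1.09 ± 0.13), and Ifi44 from 4.14 and 5.53 to 10.9 and 11.6 TPM (1.08 ± 0.14). Outside the list Ifi209, Ifi211, Ifi213, Gbp5, Gbp9, Slfn8 and Rtp4 were also called higher. Among the signal transducers of the pathway, Stat2 rose by 0.42 ± 0.07 and Irf9 by 0.39 ± 0.08. Ifi200, Ifit, Gbp and Schlafen genes have near-identical copies in the mouse genome, so the share of each copy is uncertain where the counting could split reads. Leaving out 1 library ended 4 of these calls through the 2-fold limit alone: Ifit2 (0.99), Ifi44 (0.91) and Cmpk2 (0.99) without Egr2WT replicate 1, and Isg15 without Egr2WT replicate 2 (0.99) or Egr2MKO replicate 1 (0.99). Isg15 also fell short of 2-fold under median-ratio (1.00) and quantile (0.99) scaling. The adjusted p without a library stayed between 8.95e-05 and 0.0094.

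Promoter sequence is shown for 3 of the interferon-stimulated genes that rose and 3 of the genes that fell. Each promoter shown holds a match, so they are examples and not typical of the called genes. The interferon-stimulated response element was found more often among genes that rose than among all genes. The genes holding it included listed interferon-stimulated genes such as Ifit1, Ifit3 and Isg15, so its share is no independent support for their rise. Promoters of 300 bases (250 before to 50 after the start, RefSeq, GRCm38.p6, which is mm10) were matched for 34 of the 45 higher genes, 40 of the 58 lower genes and 9079 of the 12079 genes tested. The interferon-stimulated response element was searched as GAAA, any 2 bases and GAAA on both strands, a search added after the values were seen, and 12 of 34 promoters of higher genes (35.3%) held it, against 1 of 40 of lower genes (2.5%) and 3.27% of all promoters. Over the 30 matched genes of the interferon list the share was 63.3%. The EGR motif, searched as GCGTGGGCG or GCGGGGGCG on both strands, was in 4 of 40 promoters of lower genes (10%), 2 of 34 of higher genes (5.88%) and 6.58% of all promoters, and the shorter core GTGGGCG, which lies within the first of them, was in 5%, 2.94% and 15% in the same order. A match is only a run of letters in this window and no measure of binding. Capitals mark the matches, either strand, and each promoter is written 5′ to 3′ on its gene's own strand.
Ifit1 (chr19:34640639-34640938, plus strand): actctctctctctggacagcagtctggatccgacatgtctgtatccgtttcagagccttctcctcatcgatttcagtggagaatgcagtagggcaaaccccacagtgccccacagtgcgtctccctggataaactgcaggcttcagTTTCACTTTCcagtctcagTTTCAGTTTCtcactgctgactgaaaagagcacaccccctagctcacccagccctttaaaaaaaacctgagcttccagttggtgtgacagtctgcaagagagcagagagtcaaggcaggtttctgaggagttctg
Isg15 (chr4:156200769-156201068, minus strand): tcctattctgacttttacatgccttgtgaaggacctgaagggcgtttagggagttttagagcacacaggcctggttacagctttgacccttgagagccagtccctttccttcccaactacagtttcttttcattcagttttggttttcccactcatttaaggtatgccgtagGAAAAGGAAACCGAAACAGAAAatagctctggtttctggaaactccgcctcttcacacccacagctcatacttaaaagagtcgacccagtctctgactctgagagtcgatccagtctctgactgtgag
Cxcl10 (chr5:92348840-92349139, minus strand): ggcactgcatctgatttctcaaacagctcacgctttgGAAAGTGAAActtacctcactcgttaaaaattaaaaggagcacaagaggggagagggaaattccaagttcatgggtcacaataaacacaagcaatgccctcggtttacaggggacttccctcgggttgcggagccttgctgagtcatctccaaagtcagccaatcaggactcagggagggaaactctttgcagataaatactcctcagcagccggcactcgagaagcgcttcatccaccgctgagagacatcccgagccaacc
Mgll (chr6:88724162-88724461, plus strand): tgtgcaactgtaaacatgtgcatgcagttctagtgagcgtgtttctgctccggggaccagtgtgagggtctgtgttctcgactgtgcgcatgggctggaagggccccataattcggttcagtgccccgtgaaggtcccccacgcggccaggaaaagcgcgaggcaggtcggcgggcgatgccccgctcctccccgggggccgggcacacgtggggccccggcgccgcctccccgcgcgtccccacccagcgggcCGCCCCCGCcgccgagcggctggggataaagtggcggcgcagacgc
Alas1 (chr9:106247905-106248204, minus strand): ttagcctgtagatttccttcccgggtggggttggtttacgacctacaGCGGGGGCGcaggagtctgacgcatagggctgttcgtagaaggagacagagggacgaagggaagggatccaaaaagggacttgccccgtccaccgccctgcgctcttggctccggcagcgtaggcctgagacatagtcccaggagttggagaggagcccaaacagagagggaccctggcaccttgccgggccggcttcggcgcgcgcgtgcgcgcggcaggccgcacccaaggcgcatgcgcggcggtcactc
Ccr1 (chr9:123968643-123968942, minus strand): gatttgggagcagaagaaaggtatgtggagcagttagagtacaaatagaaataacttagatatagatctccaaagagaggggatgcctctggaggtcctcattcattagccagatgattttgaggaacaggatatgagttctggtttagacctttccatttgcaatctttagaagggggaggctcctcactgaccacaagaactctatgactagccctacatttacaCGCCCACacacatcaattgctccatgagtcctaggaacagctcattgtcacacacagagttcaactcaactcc
Counted from the start, Ifit1 holds 2 separate matches to the interferon element at positions -104 and -85, Isg15 holds 3 overlapping ones at -78, -72 and -66, and Cxcl10 holds 1 at -213. The full EGR motif begins at position 5 of Mgll, on the opposite strand, and at -203 of Alas1, and Ccr1 has the core alone at -23. The other lower genes with the full motif were Dok7 and Tmem151a, both low in Egr2WT.

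Of 15 antigen presentation genes, 7 rose and none fell at an adjusted p below 0.05 (median 0.35), where 5.95% and 5.56% of all genes did, 8 did not pass, and none was called past 2-fold. Cd74, the invariant chain of MHC class II, rose from 301 and 295 to 568 and 614 TPM (0.99 ± 0.05, limma adjusted p = 2.14e-07). The class II chain genes that rose included H2-Ab1, from 69.0 and 72.2 to 132 and 146 TPM (0.97 ± 0.06), H2-Aa at 0.90 ± 0.07 and H2-Eb1 at 0.92 ± 0.11. Ciita, the activator of class II transcription, rose from 4.43 and 3.90 to 8.70 and 8.89 TPM (0.92 ± 0.13, limma adjusted p = 6.89e-04). In each of these 5 genes both Egr2MKO libraries lay above both Egr2WT libraries.

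Apoe had the largest rise on the log2(TPM + 1) scale, although genes with a few reads in Egr2WT, such as Serpina3f, rose by a larger ratio. Apoe, the apolipoprotein that carries cholesterol out of macrophages, rose 4.99-fold, from 131 and 138 to 616 and 724 TPM (2.31 ± 0.07, limma adjusted p = 2.81e-09). Apoc2, a cofactor of lipoprotein lipase that lies in the same cluster on chromosome 7 (chr7:19671579-19677941, against chr7:19696244-19699188 for Apoe), stood at 8.89 and 13.0 against 26.9 and 32.1 TPM (1.37 ± 0.33, limma adjusted p = 0.0187). Apoc4-apoc2, a readthrough gene that overlaps it, counts some of the same reads (1.33 ± 0.31). The call of Apoc2 was lost without Egr2WT replicate 1 (1.12, limma adjusted p = 0.149), Egr2MKO replicate 1 (1.49, limma adjusted p = 0.0666) or Egr2MKO replicate 2 (1.24, limma adjusted p = 0.13). Of 19 lipid handling and liver X receptor genes tested, 9 rose and 4 fell at an adjusted p below 0.05 (median 0.24), against 5.95% and 5.56% of all genes. Nr1h3, the liver X receptor alpha, rose from 14.9 and 12.6 to 28.3 and 27.0 TPM (0.96 ± 0.09, limma adjusted p = 2.02e-05). Pltp (0.79 ± 0.06), Abca1 (0.40 ± 0.06) and Abcg1 (0.31 ± 0.04), of the same list, rose less. The lipase gene Lpl fell, from 1094 and 1184 to 842 and 791 TPM (-0.48 ± 0.06), as did Ppard (-0.50 ± 0.09).

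Saa3, the serum amyloid A of macrophages, rose from 903 and 975 to 2756 and 2774 TPM (1.56 ± 0.05, limma adjusted p = 6.67e-09). Cfb, complement factor B, rose from 52.4 and 45.8 to 112 and 104 TPM (1.13 ± 0.11). Both genes were higher still in the unstimulated C57 libraries of the strain table, with means of 26074 TPM for Saa3 and 500.4 TPM for Cfb over 3 libraries. Other genes called higher had C57 means above both Egr2MKO libraries too, such as Irf7 (571 TPM), Isg15 (163 TPM) and Ifit3 (56.0 TPM). That of Apoe (650 TPM) was well above Egr2WT and near Egr2MKO, whereas Cmpk2 (7.02 TPM) and Gbp9 (1.09 TPM) were below Egr2WT. Genes called lower were mixed as well. Some had C57 means below both Egr2MKO libraries, such as Itgb3 (13.4 TPM) and Cdkn1c (31.97 TPM). Others lay between the groups, such as Mmp12 (428 TPM) and Itgax (11.2 TPM), or above both Egr2WT libraries, such as Gpc1 (40.3 TPM) and Orm1 (113 TPM). The C57 values were normalised in another table and were not compared by a test. Serpina3g rose from 0.271 and 0.437 to 5.13 and 4.80 TPM (2.14 ± 0.14, limma adjusted p = 1.66e-06) and its neighbour Serpina3f from 0.067 and 0.086 to 1.78 and 2.09 TPM (1.45 ± 0.16). Both belong to a family of close copies, and their Egr2WT values correspond to a few reads. Mefv, the inflammasome protein pyrin, rose from 5.53 and 5.48 to 17.7 and 17.6 TPM (1.52 ± 0.09), and Adra1a, an alpha 1 adrenergic receptor, from 1.82 and 1.40 to 7.14 and 6.73 TPM (1.61 ± 0.16).

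Ms4a4a, a tetraspanning membrane protein, rose from 1.25 and 3.92 to 10.5 and 10.6 TPM (1.79 ± 0.28, limma adjusted p = 0.00111), with Egr2WT replicates that differed more than 3-fold, and it did not pass in a limma fit of the 4 unstimulated libraries alone (limma adjusted p = 0.0787). Ms4a4c, from the same cluster on chromosome 19, rose from 2.389 and 4.107 to 9.28 and 10.5 TPM (1.38 ± 0.23), and Ms4a6b (1.25) and Ms4a6c (1.18) were also called. Fcgr1, the high-affinity IgG receptor, rose from 20.0 and 22.1 to 52.6 and 53.2 TPM (1.29 ± 0.10, limma adjusted p = 9.53e-06). Clec4a1, a C-type lectin, rose from 103 and 103 to 222 and 225 TPM (1.11 ± 0.06). Over the 30 scavenger, phagocytic and Fc receptors tested, 12 rose and 4 fell at an adjusted p below 0.05 (5.95% and 5.56% of all genes; median 0.20), the risers including Siglec1 (0.67 ± 0.04), Marco (0.57 ± 0.06) and Tlr7 (0.46 ± 0.08), and the fallers including Mfge8, which bridges apoptotic cells to phagocytes (-0.71 ± 0.04).

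Among chemokines and their receptors 24 were tested, and 7 rose and 3 fell at an adjusted p below 0.05 (median 0.19), the level at which 5.95% of all genes rose and 5.56% fell. Cxcl10, an interferon-induced ligand of CXCR3, rose from 7.11 and 8.85 to 21.4 and 18.6 TPM (1.23 ± 0.20, limma adjusted p = 0.00159). Cxcr4, the receptor of CXCL12, rose from 101 and 104 to 223 and 225 TPM (1.12 ± 0.06, limma adjusted p = 1.59e-07). The 3 that fell were the receptors Ccr1, Ccr2 (-0.52 ± 0.10) and Cx3cr1 (-0.46 ± 0.11). Of 16 inflammatory cytokine genes tested, 2 rose (Ptges and Tnf) and 2 fell (Csf1, -0.88 ± 0.11, and Ptgs2), and Il1b, at 2.65 and 2.89 against 4.59 and 8.43 TPM, did not pass the test (0.95 ± 0.35, limma adjusted p = 0.115). Of 23 AP-1 and immediate early genes tested, 2 rose and 1 fell, with none past 2-fold, a share near that of all genes (5.95% and 5.56%). Batf2 rose by 0.52 ± 0.11 (limma adjusted p = 0.00671), and Dusp5 had a value of -0.52 ± 0.26 that did not pass the test.

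Of 29 macrophage lineage and identity genes tested, 10 rose and 5 fell at an adjusted p below 0.05 (median 0.06), where 5.95% and 5.56% of all genes did. The risers included the efferocytosis receptor Mertk, from 19.0 and 20.4 to 37.2 and 35.7 TPM (0.86 ± 0.08), the transcription factor Maf (0.53 ± 0.08), and Adgre1, the F4/80 antigen (0.37 ± 0.03). The fallers included Bhlhe40 (-0.54 ± 0.07) and Cebpa (-0.48 ± 0.08). Of 20 lysosomal genes 4 rose and 5 fell, led by Lgmn (0.37 ± 0.03) and Acp5, and of 24 matrix and adhesion genes 5 rose and 7 fell, against the same shares of all genes, with the membrane protease gene Mmp14 at 89.9 and 92.2 against 187 and 176 TPM (0.99 ± 0.06) opposite to Mmp12 and Itgb3.

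**Figure D3:**
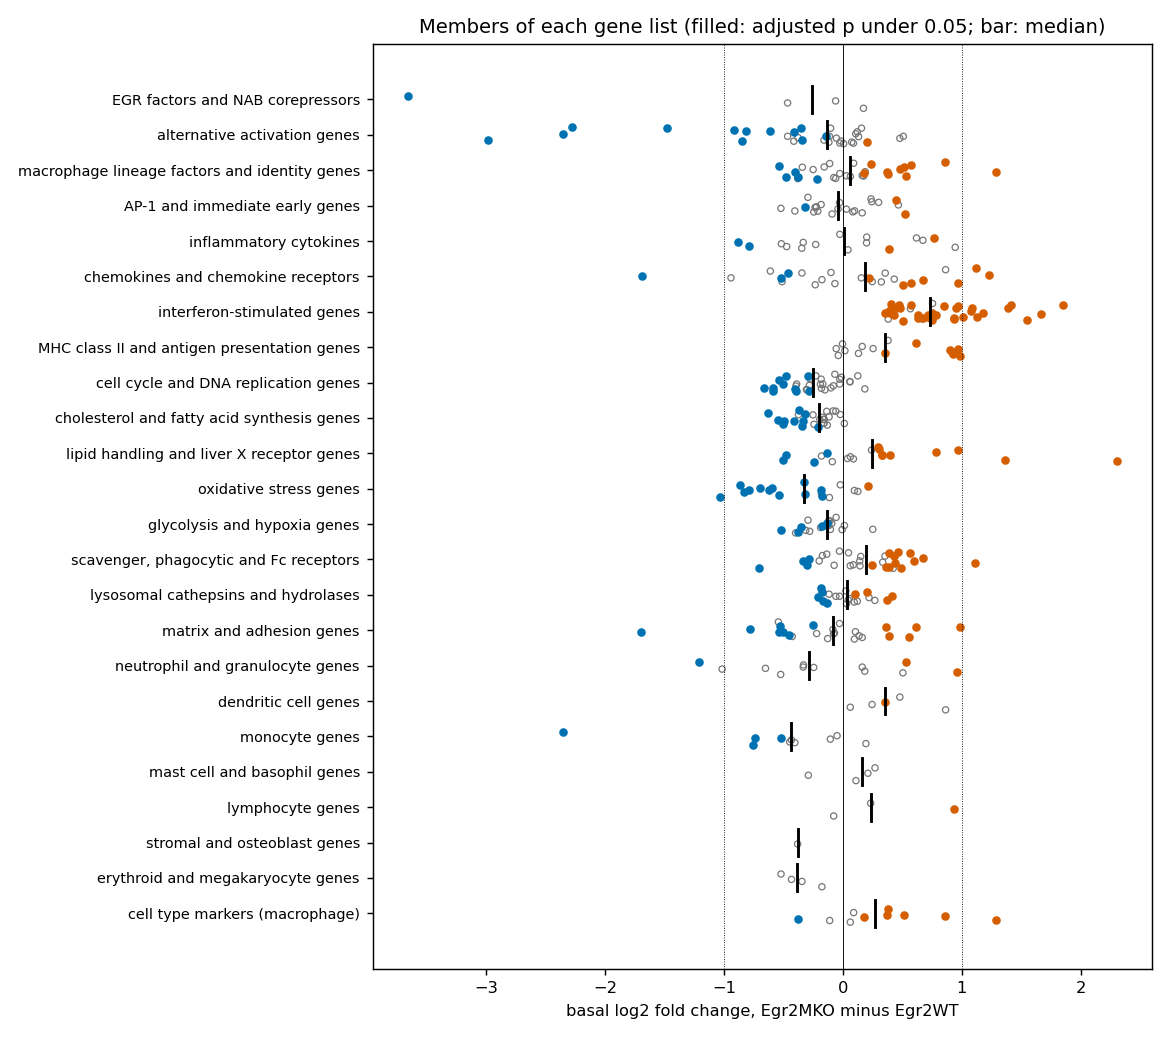
Basal log2 fold change (horizontal axis, Egr2MKO minus Egr2WT) of each tested member of the gene lists and of the macrophage markers, with orange for higher and blue for lower at an adjusted p below 0.05, open points for members that did not pass, and a black bar at the list median. The interferon-stimulated genes lie wholly right of 0 with a median of 0.73, while the oxidative stress genes have a median of -0.32.

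Of the markers of other marrow-derived cells, 9 of 10 monocyte genes tested had values below 0 (median -0.44), where the median of all genes was 0.02. Of the 10, 7 had both Egr2MKO libraries below both Egr2WT libraries, as had 4 of 4 erythroid and megakaryocyte genes and 25.6% of all genes. The values of 5 of 5 dendritic cell genes tested were above 0, but only 1 of them passed at an adjusted p below 0.05. In bulk RNA fewer cells of a type and less RNA per cell cannot be told apart. The summed level of 12 monocyte genes was 238 and 241 TPM in Egr2WT and 125 and 126 TPM in Egr2MKO, of which Chil3 made up most of the difference. At an adjusted p below 0.05, 4 of the 10 tested fell and none rose, where 5.56% and 5.95% of all genes did. Ly6c2 at 29.9 and 28.1 against 21.3 and 21.1 TPM did not pass the test (limma adjusted p = 0.0729). Of 12 neutrophil genes tested 2 rose, Fpr1 and Csf3r, and 1 fell, against 5.95% and 5.56% of all genes. The gene that fell was S100a9, at 17.4 and 13.2 against 6.45 and 5.58 TPM (-1.21 ± 0.34, limma adjusted p = 0.0407). The call of S100a9 was lost when any 1 of the 4 libraries was left out, with adjusted p from 0.0805 to 0.218. The neutrophil-restricted Ly6g reached at most 0.105 TPM and Retnlg was listed at 0. Of dendritic cell genes, Flt3, Zbtb46, Xcr1, Clec9a and Cd209a stayed at or below 0.275 TPM in all 4 libraries, while Bst2, which is also on the interferon list, rose by 0.35. Ccr7 (0.86 ± 0.27) and Ccl22 (0.48 ± 0.20), both at or below 1.21 TPM, did not pass. Itgax, named above as a dendritic cell marker but not on this list, fell (-2.99 ± 0.07). The B and T cell genes Cd3e, Cd3g, Ms4a1 and Pax5 were listed at 0, and of 3 lymphocyte genes tested Cd4, which macrophages can also express, was at 1.02 and 0.971 against 2.84 and 2.79 TPM (0.93 ± 0.13, limma adjusted p = 4.94e-04), Cd79b did not pass (0.23 ± 0.25) and Il7r was at 136 to 152 TPM with no pass. None of the mast cell (4 tested, Prss34 at -0.29 and Kit at 0.27), stromal (1 tested, Runx2 at -0.38 ± 0.13) or erythroid and megakaryocyte genes (4 tested, Itga2b at -0.52 ± 0.22 and Car2 at -0.43 ± 0.22) passed the test. The 4 Y-linked genes checked were at or below 0.021 TPM and Xist was at 86.3 and 87.8 against 71.3 and 60.8 TPM (-0.40 ± 0.13, limma adjusted p = 0.0654). The part of any other cell type in the genotype difference was not tested.

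The IL-4 libraries show the same genes in libraries that did not enter the basal groups, although all 16 libraries share the variance estimate. The labels do not say whether unstimulated and IL-4 libraries came from the same mice. Any other difference between the 2 genotypes would also recur at each time, so agreement between times is no independent replication. Of the 58 genes called lower, 57 kept their sign after each of 1, 6 and 24 h of IL-4, when 46.9%, 45.9% and 34.6% of all genes were below 0, and 45, 48 and 49 were called lower again, where 0.58%, 1.41% and 2.14% of all genes were. Of the 45 called higher, 43 kept their sign at all 3 times, when 52.7%, 53.4% and 64.8% of all genes were above 0, and 37, 36 and 41 were called higher again, where 0.48%, 0.894% and 2.42% of all genes were. The exceptions were the hairpins Mir15a, Mir6942 and Mir7003, and Mir6942 was called in the opposite direction at 1 and 6 h. The median of the lower genes went from -1.36 unstimulated to -1.22, -1.47 and -2.11, and that of the higher genes from 1.29 to 1.34, 1.33 and 1.91, while the median of all genes was 0.12 at 24 h and 0.01 to 0.02 before. Itgax was at 24.7 and 25.4 against 2.39 and 2.08 TPM after 1 h and at 159 and 164 against 6.83 and 7.25 TPM after 24 h. Irf7 was at 108 and 103 against 274 and 295 TPM after 1 h and at 32.8 and 26.3 against 208 and 212 TPM after 24 h. Itgax thus rose with 24 h of IL-4 in both genotypes, with a change of the difference of -1.35, and Irf7 was lower after 24 h than without IL-4 in both, with a change of 1.62. The median of the interferon list was 0.87, 0.86 and 1.27 at the 3 times, and that of the oxidative stress list -0.39, -0.54 and -0.67. The cell cycle list, by contrast, went from -0.25 unstimulated to 0.51 at 24 h.

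**Figure D4:**
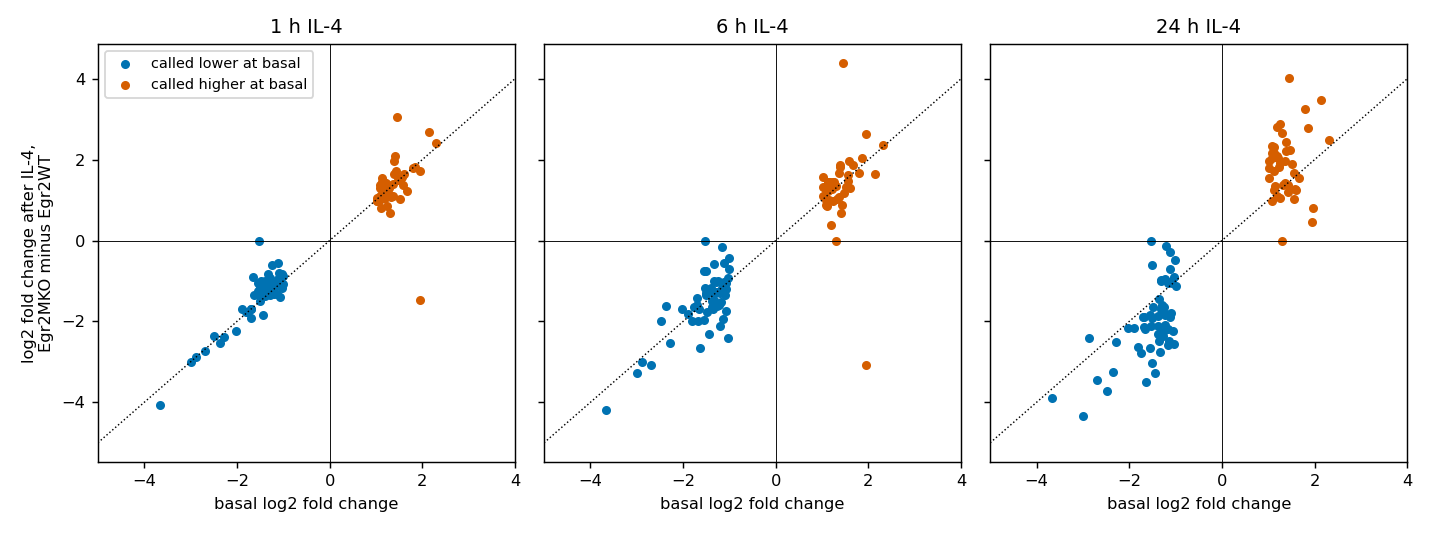
Log2 fold change after 1, 6 and 24 h of IL-4 (vertical axis) against the unstimulated log2 fold change (horizontal axis), Egr2MKO minus Egr2WT, for the 58 genes called lower (blue) and the 45 called higher (orange) without IL-4, with the line of equality dotted. At 1 h most points lie near the line, with the hairpins Mir15a (at 0) and Mir6942 (opposite in sign) among the exceptions. At 24 h many lie beyond it, with a median of -2.11 for the lower and 1.91 for the higher genes.

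The change of the difference with IL-4 was tested directly by an interaction term, which shares its unstimulated libraries with the basal comparison. After 1 h it passed for 0 of the 103 genes (0.0166% of all genes passed). After 6 h it passed for 1 higher and 1 lower gene toward a larger difference and for 2 hairpins away from it, Mir15a, whose difference went from -1.52 to 0, and Mir6942, which reversed from 1.94 to -3.08 (1.1% of all genes). After 24 h it passed for 24 lower and 24 higher genes in the direction of a larger difference and for 2 lower genes in the direction of a smaller one (12.6% of all genes). The latter were Mir15a and Atp6v0d2, whose log2 fold change went from -2.88 to -2.40. These directions are on the log2(TPM + 1) scale, where a gene low without IL-4 can pass without a larger ratio of TPM. Lrrc32 passed (-1.12), yet its TPM ratio was not larger after 24 h. It was at 2.26 and 2.82 against 0.268 and 0.152 TPM unstimulated. After 24 h it was at 23.6 and 21.1 against 2.50 and 2.84 TPM.

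Whether these genes respond to IL-4 in cells with intact Egr2 was read from 3 unstimulated and 3 IL-4-treated (24 h) C57 libraries of the strain table, which share no library with the basal comparison. Of the 57 lower genes tested there 21 were induced (36.8%) and 3 repressed (5.26%) more than 2-fold at a limma adjusted p below 0.05, and of the 43 higher genes 2 were induced (4.65%) and 10 repressed (23.3%). Over the 11292 genes tested in both fits, 2.34% were induced and 1.57% repressed. The median response was 0.36 for the lower genes, -0.53 for the higher genes and -0.04 for all. Chil3 went from a mean of 65.4 to 1749 TPM in C57 (4.72), Clec7a from 77.2 to 706 TPM (3.17) and Itgax from 11.2 to 83.4 TPM (2.79). Alas1 went from 305 to 349 TPM, a rise of 0.19, and Apoe from 650.3 to 585 TPM (-0.16, limma adjusted p = 0.276). Ifit3 fell from 56.0 to 17.7 TPM (-1.61) and Saa3 from 26074 to 9933 TPM (-1.39), while Serpina3g (3.04) and Ms4a4a (2.56) were the 2 higher genes that IL-4 induced. Genes lower without Egr2 were thus a mixture of genes that IL-4 raises and genes that it leaves or lowers.

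**Figure D5:**
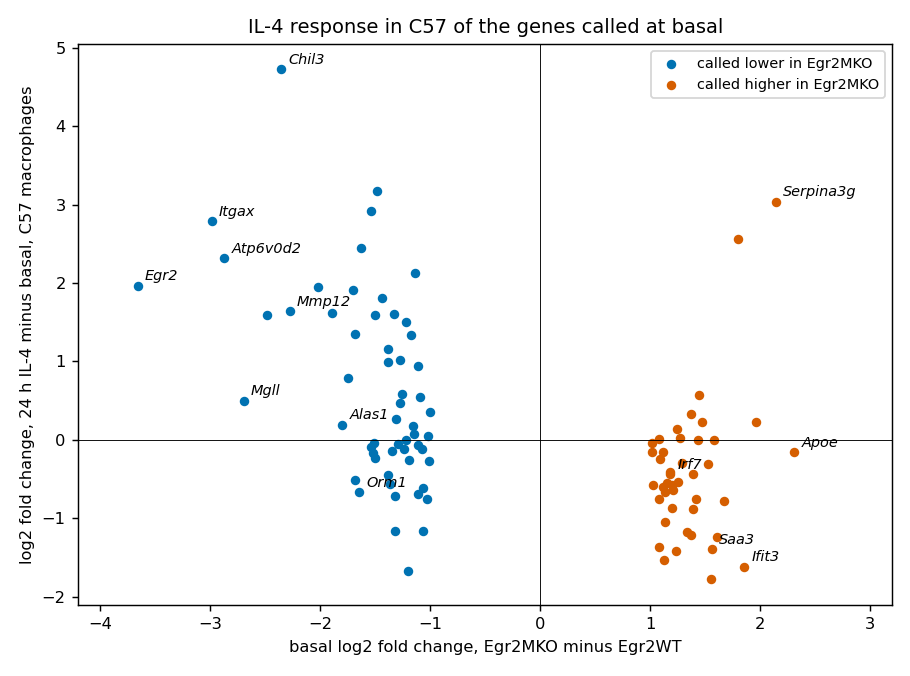
Log2 fold change with 24 h of IL-4 in C57 BMDMs (vertical axis) against the unstimulated log2 fold change, Egr2MKO minus Egr2WT (horizontal axis), for the called genes tested in both tables, blue for lower and orange for higher. Chil3 (4.72) and Itgax (2.79) stand high on the left, and most orange points lie below 0, with a median of -0.53.

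Egr2 and the Cre host gene Lyz2 both lie on chromosome 10. The genotypes could also differ there by linked DNA from the strain in which the Cre allele was made. Both groups are homozygous for the floxed allele, so DNA linked to that allele should be shared by both. Within 10 Mb of Egr2 none of 94 other genes tested was called, and within 10 Mb of Lyz2 1 of 69 was, Bbs10 at 4.72 and 4.99 against 2.71 and 1.26 TPM (-1.01 ± 0.22, limma adjusted p = 0.0109). At an adjusted p below 0.05 alone, 18 of the 94 genes near Egr2 (19.1%) and 7 of the 69 near Lyz2 (10.1%) passed, against 11.5% of all genes. The nearest to Egr2 was Ado, a thiol dioxygenase gene whose midpoint is 0.0067 Mb away, at 36.0 and 33.5 against 25.2 and 25.7 TPM (-0.44 ± 0.06, limma adjusted p = 4.69e-04). Chromosome 10 as a whole held 2 of the 103 called genes, Egr2 and Bbs10, and 4.93% of the genes tested, while chromosome 19, with the Ifit and Ms4a clusters, held 11 called genes and 3.73% of the genes tested. Linked DNA and Egr2 loss cannot be told apart for single genes near Lyz2, and the part of linked DNA near Egr2 was not tested.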

How the data were processed

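RNA-seq libraries of poly(A) RNA from BMDMs were prepared with a strand-marking (dUTP) protocol. The authors deposited TPM, transcript abundances scaled to library size and gene length. The submitters' processing notes name STAR, HOMER, DESeq2 and the genome builds mm10 and hg38, with versions not given in the sources used here. Coordinates are given here as mm10. The deposited TPM columns summed to between 606226 and 622741 in the 16 Egr2WT and Egr2MKO libraries. The same tables hold the authors' DESeq2 comparisons (fold changes and p-values), which were not used. The number of per-sample columns that matched no sample was 0.

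The filter kept genes that reached 1 TPM in 2 or more of the 16 libraries (12079 of 24537), and these were fitted on log2(TPM + 1) with limma 3.58.1 (R 4.3.3), 1 mean for each of 8 genotype-by-time groups, empirical Bayes with a trend and Benjamini-Hochberg adjustment. Fold changes on this scale understate the change of low genes. The C57 response to IL-4 came from a separate limma fit of the 29 libraries of 5 strains, because the tables were normalised separately. Reads were estimated from the smallest steps between low values, of which 91.2% to 93.2% were whole within 0.1 read over values up to 10 reads, and no depth is stated otherwise. Replicate numbers were not used as pairs. The fit was tested on simulated data. Figures were drawn with matplotlib 3.10.9.

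Named genes were Egr2, Lyz2, genes whose RNA the study names, the 15 largest changes in each direction among called genes whose groups did not overlap (leaving out microRNA, small nucleolar and unnamed genes), and in each gene list the called members or otherwise the 2 largest changes. The members and the gene lists were chosen with earlier results of these data known. Alternatives were the pseudocount, the filter, the scaling, the fold threshold, the libraries fitted, a replicate block, the prior, and leaving out each library, and 2 added after seeing the data were limma-voom on estimated reads and leaving out Egr2MKO replicate 2 at 6 h, the library with the fewest estimated reads.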

Additional observations from a re-analysis of the deposited data

Results flagged for a closer look

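For the named genes called without IL-4, the genotype difference itself differed between time points for 22 genes after 24 h and 2 genes after 6 h (interaction term, limma adjusted p below 0.05). The values below are changes of the log2 fold change, IL-4 minus unstimulated, and every one of them uses the unstimulated libraries again. A wider or narrower gap means on the log2(TPM + 1) scale, which understates the unstimulated difference of low genes. Among genes lower in Egr2MKO the gap widened after 24 h for Slc7a11 (-1.517), Itgax (-1.348), Eef1a2 (-1.229), Serpinb9b (-1.035), Chil3 (-0.9024), Alas1 (-0.8195) and Mgll (-0.7437). It narrowed for Atp6v0d2 (0.4713).

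Among genes higher in Egr2MKO the gap widened after 24 h in every named gene that passed. The protease inhibitors Serpina3f (2.567) and Serpina3g (1.33) and the membrane protein gene Ms4a4a (1.461) were among them. For Serpina3g the ratio of TPM itself did not widen. It was at 0.271 and 0.437 against 5.13 and 4.80 TPM unstimulated. After 24 h it was at 4.30 and 4.82 against 60.6 and 60.7 TPM. The interferon-stimulated genes were Irf7 (1.618), Ifi44 (1.091), Ifit1 (1.041), Ifit2 (1.031), Cmpk2 (0.9646), Ifit3 (0.9225) and Isg15 (0.5422), and the guanylate-binding protein gene Gbp9, outside the list of such genes, changed by 0.7818. The receptors were Fcgr1 (1.381), Clec4a1 (0.9659) and Cxcr4 (0.6051). After 6 h the change passed for Serpina3f (2.945) and Slc7a11 (-1.39). The median of all genes moved from 0.02 to 0.12 over the same 24 h.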

How the results depend on the processing

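The counts called without IL-4 were 45 higher and 58 lower, 43.7% of them higher. A pseudocount of 5 TPM gave 21 and 25 calls, all among those 103, and a pseudocount of 0.1 TPM gave 104 lower. A mean of at least 5 TPM left 34 higher (51.5% of calls) and 32 lower by testing fewer genes. A threshold of 1.5-fold gave 169 and 188, and no fold threshold 719 and 671. Limma-voom on estimated reads, added after seeing the data, gave 76 higher and 159 lower, so that 32.3% of calls were higher, and the cause was not tested. Leaving out 1 basal library gave 39 to 56 higher and 57 to 64 lower. The replicate block gave 45 and 59 with all libraries, and 33 and 37 in the fit of the 4 basal libraries alone. Same-numbered libraries did not deviate together (r = -0.0516), so they share only a number.

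With a pseudocount of 5 TPM the basal genes called again numbered 22 higher and 20 lower after 1 h and 24 lower after 6 h, and the change of the difference passed for 2 named genes after 1 h (2 also under median-ratio scaling) and 8 after 6 h. In C57 the lower genes induced numbered 43 at a pseudocount of 0.1 TPM and 11 at 5 TPM, with 0 repressed at 5 TPM, and the higher genes induced numbered 6 and 1, with 5 repressed at 5 TPM. At 5 TPM 14 named calls were lost, mostly of genes below 10 TPM in Egr2WT. Ms4a4a (adjusted p = 0.0787), Ifi205, Ms4a4c, Cxcl10, Ifit2, Ifi44 and Cmpk2 lost their call in 1 or both fits of the 4 basal libraries alone. Depth limits genes near 1 TPM most, where a value rests on a few reads.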
